A study of Rattus norvegicus with 47 samples.

Results

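The kidney mRNA of rats with podocyte hypertrophy (PH) was compared with that of rats without this lesion. The comparison covered 16 samples of the 47 in the series, 9 with PH and 7 without, and each sample was the kidney of a separate rat. All were male Wistar Han rats from an outbred stock, not genetically modified, 7 weeks old at the start, and fed a standard diet (SD) or a high-fat diet (HFD) for 10 weeks. The rats with PH were SD-fed rats 1244, 1245 and 1246 and HFD-fed rats 1252, 1256, 1259, 1267, 1271 and 1275. The rats without it were SD-fed rats 1247, 1248, 1249, 1250 and 1251 and HFD-fed rats 1255 and 1274. Lesions were read under the microscope, and each rat's lesion status was taken from the sample labels of the study's expression heatmap, in which the labels of rats 1246, 1248 and 1249 were the least sharp. A second lesion, mesangial matrix increase (MMI), was read for the same rats in the same way.

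The lesions and diets overlapped. PH without MMI was present in 6 rats, MMI without PH in 5 rats, both lesions in 3 rats and neither in 2 rats. No SD-fed rat had both lesions, and no HFD-fed rat had neither. Both HFD-fed rats without PH, 1255 and 1274, had MMI. The study's text reports early lesions in every HFD-fed rat and names PH and MMI among them. The labels used here give 2 HFD-fed rats without PH and 3 without MMI, and this difference was not resolved. RNA came from pieces of kidney and not from isolated glomeruli, so tubules, vessels and interstitium were measured together with the glomeruli, and in such samples fewer cells of a type cannot be told apart from less RNA per cell.

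Podocytes are the epithelial cells that cover the outside of the glomerular capillaries. Their interdigitating foot processes are joined by the slit diaphragm, a zipper of nephrin (Nphs1) and its partners, and rest on a basement membrane of type IV collagen and laminin that the podocytes help to make. They do not readily divide in the adult, so podocytes facing a larger glomerulus enlarge, and in obesity-related glomerulopathy this is seen as PH.

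The kidney's defining markers were present in every library. Nephrin was between 127 and 1545 normalized counts (read counts that the authors scaled between libraries), Wt1 between 21.9 and 333 and uromodulin (Umod), the secreted protein of the thick ascending limb, between 60580 and 116800. Library totals ran from 17623718 to 22565849 normalized counts, and the mean total was 649007 higher with PH at equal diet (exact permutation of the lesion within diet, two-sided, p = 0.378, 1568 regroupings, adjusted p = 0.438 over 3 library measures). On the first principal component of the log2 values, which held 46.2% of the variance, rats 1247, 1248, 1252, 1255 and 1274 lay between 54.3 and 78.3 and the other 11 rats between -75.7 and -1.39. All 5 of these rats had MMI, 4 of them had no PH, and their part in the results is given below for some of the gene lists only.

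**Figure D1:**
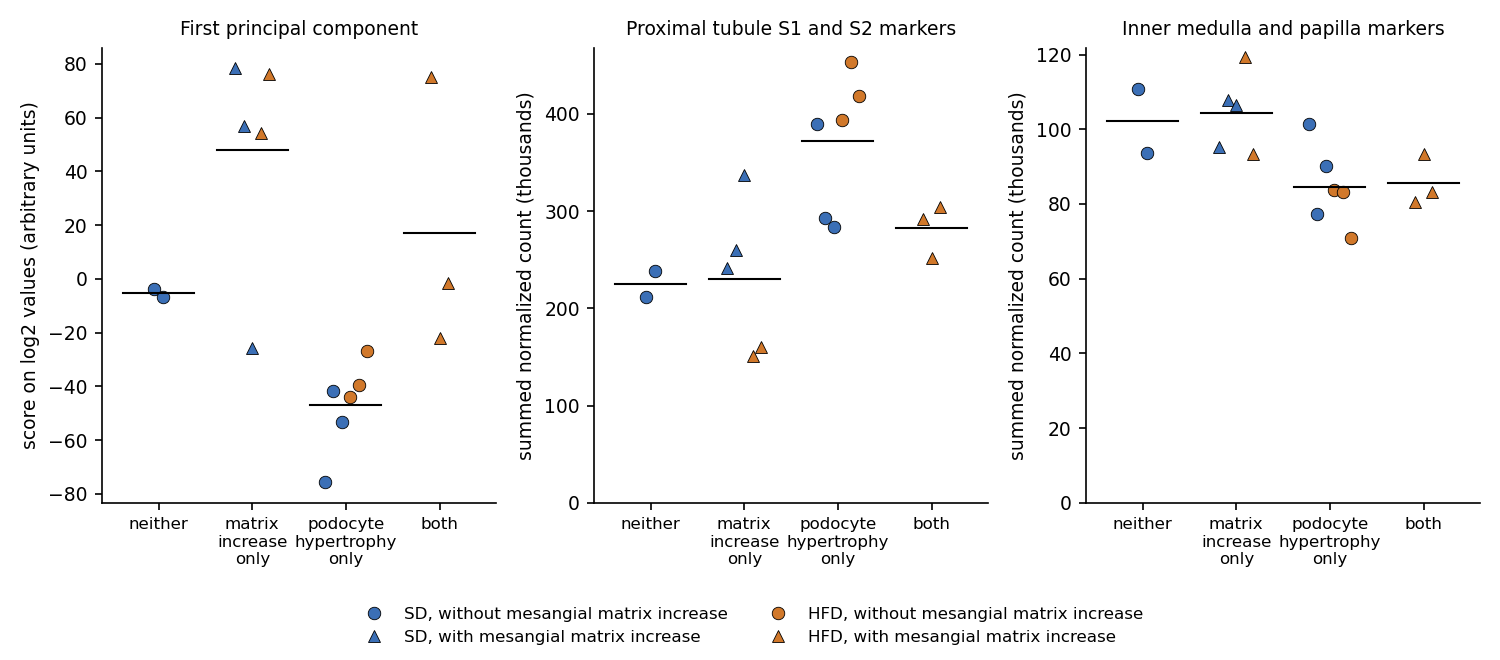
The 16 rats by lesion class, with each rat a point coloured by diet, triangles for rats with MMI and a bar at the class mean. The left panel shows the score on the first principal component, where 5 rats with MMI lie between 54.3 and 78.3 and every rat with PH alone at or below -26.7, and the other panels show the summed normalized counts of proximal tubule S1 and S2 markers and of inner medulla and papilla markers.

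With diet as a covariate, 3806 of 13673 tested genes differed by PH at an adjusted p under 0.05 (limma, log2 scale with 1 added to each value, Benjamini-Hochberg adjustment over all tested genes), 27.8% of those tested. Of these, 2167 were higher with PH (15.8%) and 1639 were lower (12%). The median log2 fold change over all tested genes was -0.01. The smallest adjusted p was 0.0116, shared by the genes at the top of the list.

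This number rested on the model and on single rats. With MMI added as a covariate no gene was called, 2523 genes (18.5%) had an unadjusted p under 0.05, and the smallest adjusted p was 0.172. Of the 3806 genes, 3806 kept their sign in that fit and 2279 had an unadjusted p under 0.05. Without HFD-fed rat 1274 no gene was called, 4671 genes had an unadjusted p under 0.05, and the smallest adjusted p was 0.0613. HFD-fed rats without PH were then represented by rat 1255 alone, whose spread was assumed to be that of the other groups. Without the 3 rats whose labels were least sharp no gene was called either, with 4693 genes at an unadjusted p under 0.05 and a smallest adjusted p of 0.0585. Without diet in the model 174 genes were called (1.27%), 102 higher (0.746%) and 72 lower (0.527%), all of them among the 3806. In the 11 rats left without the 5 that stood apart on the first principal component 83 genes were called, all higher with PH. No HFD-fed rat without PH was left, so the PH effect there came from SD-fed rats 1244, 1245 and 1246 against 1249, 1250 and 1251. Leaving out SD-fed rat 1244 left 532 genes and leaving out SD-fed rat 1246 left 2004, while leaving out the 3 rats with both lesions gave 5290.

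**Figure D2:**
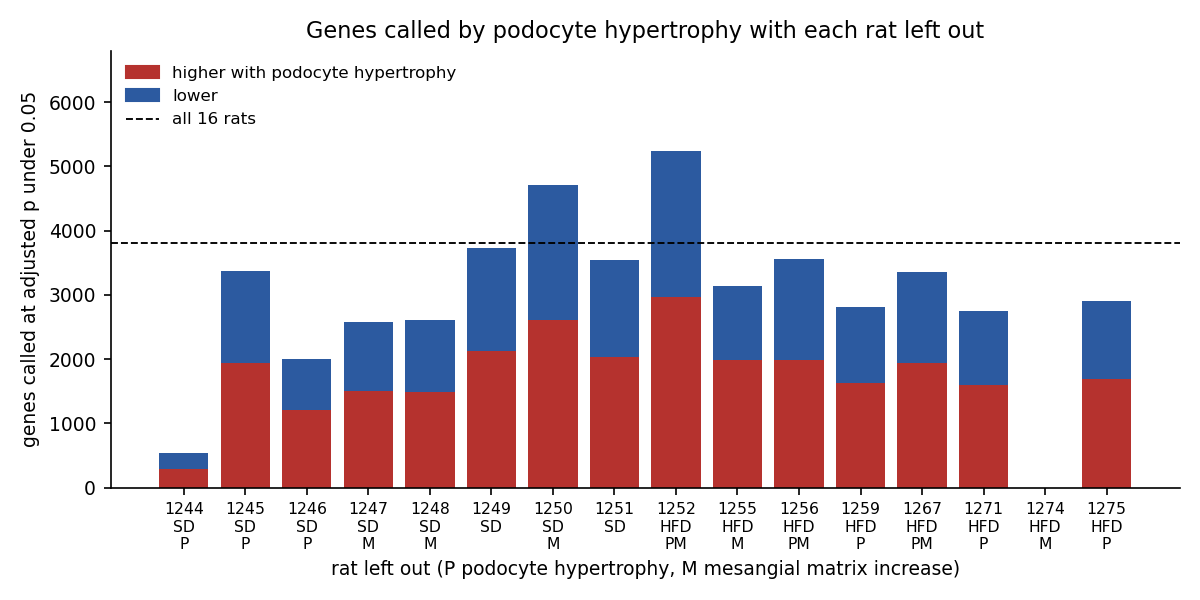
Number of genes called by PH (adjusted p under 0.05, diet as a covariate) when each rat in turn was left out, with genes higher with PH in red and lower in blue. The dashed line marks the 3806 genes called in all 16 rats. No gene was called without rat 1274, and 5247 were called without rat 1252.

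Gsta3 fell with PH and Xkr4 rose with it, and for each gene the values of the 9 rats with PH and the 7 rats without did not overlap. Such separation was seen for 18 of the 13673 genes (0.132%), of which 10 were higher with PH (0.0731%) and 8 lower (0.0585%), and 16 of the 18 were called. Gsta3 encodes an alpha-class glutathione S-transferase, an enzyme that joins glutathione to electrophiles and lipid peroxidation products. Its normalized count was 287 at the lowest, 477 at the median and 673 at the highest in rats with PH, and 853, 1025 and 1202 in rats without. The means were 470.2 ± 142 (SD, n = 9) and 1044 ± 111 (SD, n = 7), a log2 fold change of -1.12 ± 0.18 (SE, adjusted p = 0.0116). Neither lesion gave a mean of 1154, MMI alone 999.7, both lesions 579 and PH alone 416, so the rats with both lesions lay with the PH rats and not with the MMI rats.

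Xkr4 encodes a member of the XK-related family of membrane proteins, which includes lipid scramblases that expose phosphatidylserine on dying cells. It was a low gene, at 5.28, 12.1 and 12.8 normalized counts (lowest, median and highest) with PH against 1.73, 2.99 and 5.26 without. The highest rat without PH, at 5.26, and the lowest rat with it, at 5.28, were almost level. The log2 fold change was 1.50 ± 0.28 (SE, adjusted p = 0.0116). Among the 8 rats with MMI it was 1.13 ± 0.60 (SE, adjusted p = 0.751), and among the 8 without MMI 2.12 ± 0.41 (adjusted p = 0.0343). The same fits gave -0.70 ± 0.21 (adjusted p = 0.563) and -1.20 ± 0.21 (adjusted p = 0.0277) for Gsta3. With diet in these fits, the effect with MMI came from HFD-fed rats 1252, 1256 and 1267 against 1255 and 1274. That without MMI came from SD-fed rats 1244, 1245 and 1246 against 1249 and 1251, so lesion class and diet were not separated. With MMI as a covariate the log2 fold change was -0.89 ± 0.19 for Gsta3 and 1.57 ± 0.35 for Xkr4, both at an adjusted p of 0.176, and without rat 1274 both stood at an adjusted p of 0.0613.

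**Figure D3:**
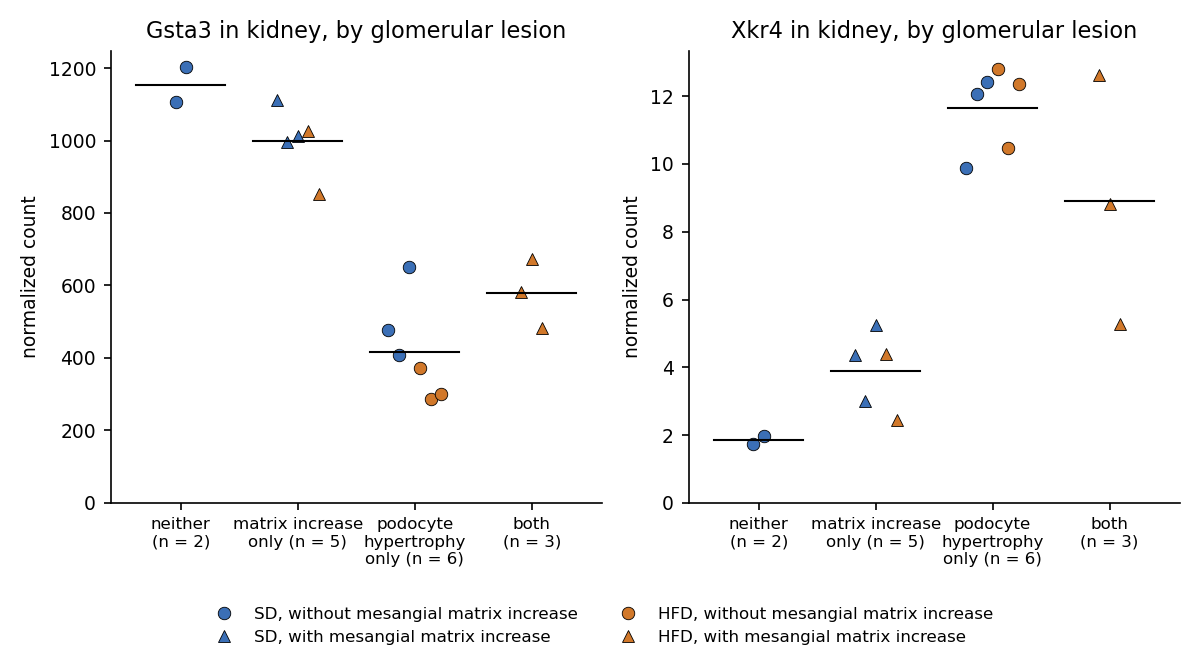
Normalized counts of Gsta3 and Xkr4 in the 16 rats by lesion class, each rat a point coloured by diet, triangles for rats with MMI and a bar at the class mean. All 9 rats with PH lie below the 7 rats without it for Gsta3 and above them for Xkr4.

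The window around one of the 2 annotated starts of Gsta3 (RefSeq, GRCr8, chr9:31154739-31155038, plus strand, 250 bases before the start to 50 after it) is shown because it holds a match to the core of the antioxidant response element, the site bound by the oxidative stress factor NRF2. The motif searched was TGACNNNGC on both strands, and the match, in capitals, begins 17 bases before the start.

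Gsta3: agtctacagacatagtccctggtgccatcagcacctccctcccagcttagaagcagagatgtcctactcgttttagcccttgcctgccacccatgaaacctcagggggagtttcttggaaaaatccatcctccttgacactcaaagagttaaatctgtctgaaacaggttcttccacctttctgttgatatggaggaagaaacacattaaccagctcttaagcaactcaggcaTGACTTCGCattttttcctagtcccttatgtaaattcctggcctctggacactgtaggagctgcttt

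The same letters occurred in 12.1% of 33469 promoter windows of this length, in 15.4% of windows of genes higher with PH, in 14.1% of windows of genes lower with PH and in 14.3% of windows of tested genes not called, so the match did not set Gsta3 apart from other genes. A match is a description of the letters and not a bound site.

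Of 21 glutathione S-transferases tested, Gsta3 and Gstm2 fell, Gstt1 rose, and 18 were not called, where 27.8% of all tested genes were called; the list's median log2 fold change was -0.07. Gstm2, a mu-class enzyme, was at 1393, 1647 and 2348 normalized counts with PH and 1610, 2265 and 2962 without (log2 fold change -0.52 ± 0.15, adjusted p = 0.0261). Gstt1, a theta-class enzyme, gave 0.71 ± 0.21 (adjusted p = 0.0267). The alpha-class paralogs had log2 fold changes of 0.04 ± 0.16 for Gsta1 (adjusted p = 0.865), -0.05 ± 0.20 for Gsta2 (adjusted p = 0.854), -0.16 ± 0.14 for Gsta4 (adjusted p = 0.382) and -0.36 ± 0.20 for Gsta6 (adjusted p = 0.168). These copies are closely related in sequence, so the split of reads among them, and with it the value of Gsta3, is uncertain. The remaining members had adjusted p-values of 0.0611 for Gstt2, 0.0755 for Mgst3, 0.0762 for Gstm1 and between 0.128 and 0.9 for the other 11.

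Among 27 antioxidant and NRF2-regulated genes, 4 rose and 2 fell, no larger shares than the 15.8% and 12% of all tested genes, so the values below describe single genes and not the list. Nqo1, a quinone reductase and a standard NRF2 target, fell by 0.94 ± 0.22 on the log2 scale (adjusted p = 0.0168), and 8 of the 9 rats with PH lay below every rat without it. Nfe2l2, which encodes NRF2 itself, gave -0.38 ± 0.10 (adjusted p = 0.0212), and Keap1, which encodes the adaptor that marks NRF2 for degradation, gave 0.71 ± 0.22 (adjusted p = 0.0291). Higher with PH were Gpx3, the secreted glutathione peroxidase made by the proximal tubule (1.42 ± 0.32, adjusted p = 0.0165), the extracellular superoxide dismutase Sod3 (0.96 ± 0.28, adjusted p = 0.0261) and Gpx1 (0.82 ± 0.27, adjusted p = 0.035).

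Of the XK-related family, Xkr4 was the only called member among the 4 tested. Xkr6 gave 1.01 ± 0.45 (adjusted p = 0.0944), Xk -0.57 ± 0.34 (adjusted p = 0.206) and Xkr8 0.11 ± 0.16 (adjusted p = 0.602). Across the 20 tested genes of phosphatidylserine exposure and engulfment, 3 rose and 2 fell, close to the 15.8% and 12% of all tested genes. Stab1, a scavenger receptor for apoptotic cells, rose by 1.41 ± 0.38 (log2, adjusted p = 0.0212) and Gas6, the bridging ligand of the TAM receptors, by 0.55 ± 0.16 (adjusted p = 0.026). Gulp1, an engulfment adaptor, gave -1.21 ± 0.26 (adjusted p = 0.0157) and the small GTPase Rac1 -0.56 ± 0.14 (adjusted p = 0.0183).

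Many podocyte genes were higher in the rats with PH. Of 20 slit diaphragm and foot process genes, 9 rose, 1 fell and 10 were not called, where 15.8% of all tested genes were higher and 12% lower. The list median log2 fold change was 0.34 against -0.01 for all genes. Of 20 genes of podocyte identity and secretion, 10 rose, 1 fell and 9 were not called, with a median of 0.61. With MMI added as a covariate none of the 40 was called; the medians became 0.20 and 0.45, and 8 and 10 members had an unadjusted p under 0.05. Without rat 1274 none was called either. Without the 5 rats apart on the first principal component 1 of the 40 was, where 0.608% of all tested genes were called. The medians were then 0.32 and 0.45, from SD-fed rats alone.

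Synpo, which encodes the foot process actin organizer synaptopodin, had the smallest p of all genes. It was at 88.8, 297 and 431 normalized counts with PH (lowest, median, highest) and at 38.2, 79.5 and 124 without, and rat 1252, at 88.8, was the single rat with PH inside the range of the others. Its log2 fold change was 2.09 ± 0.29 (SE, adjusted p = 0.0116). Within the SD-fed rats the difference was 1.88 ± 0.23 (adjusted p = 0.0332) and within the HFD-fed rats 2.35 ± 0.54 (adjusted p = 0.0736). Among the 8 rats with MMI, where the effect came from HFD-fed rats alone, it was 1.66 ± 0.33 (adjusted p = 0.252). Among the 8 without MMI, where it came from SD-fed rats alone, it was 1.79 ± 0.30 (adjusted p = 0.0233).

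Nephrin (Nphs1) was at 679.5, 1060 and 1545 normalized counts with PH and at 127, 434 and 711 without, means of 1107 ± 290 (SD, n = 9) and 470.2 ± 204 (SD, n = 7). The log2 fold change was 1.61 ± 0.27 (SE, adjusted p = 0.0116), and rat 1267 was the rat with PH that fell within the range of the others.

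Other slit diaphragm and foot process genes that rose were Kirrel1, the nephrin-binding NEPH1 (0.70 ± 0.16, adjusted p = 0.0166), the receptor phosphatase Ptpro (1.03 ± 0.27, adjusted p = 0.021), the scaffold Magi2 (0.95 ± 0.26, adjusted p = 0.0222), the formin Inf2 (1.76 ± 0.46, adjusted p = 0.0194), the actin crosslinker Actn4 (0.68 ± 0.20, adjusted p = 0.0242) and the intermediate filament gene Nes (0.60 ± 0.14, adjusted p = 0.0165). Plce1, a phospholipase needed for podocyte development, went the other way, with -0.88 ± 0.27 (adjusted p = 0.0281). Its mean was 249 in the rats with neither lesion, 245 with PH alone, 585 with MMI alone and 337 with both. The high mean with MMI alone came from rats 1247, 1248, 1255 and 1274, between 544 and 810, all apart on the first principal component. Rat 1250, also with MMI alone, was at 213.

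Sema3g, a secreted semaphorin of podocytes, was at 1700, 3080 and 5926 normalized counts with PH and 266, 946 and 1847 without, a log2 fold change of 2.03 ± 0.34 (adjusted p = 0.0116). The podocyte transcription factors Lmx1b (2.34 ± 0.56, adjusted p = 0.0169), Foxc2 (1.60 ± 0.32, adjusted p = 0.0129), Foxd1 (1.51 ± 0.31, adjusted p = 0.0134), Tcf21 (1.08 ± 0.25, adjusted p = 0.0168) and Wt1 (1.23 ± 0.35, adjusted p = 0.0236) were all higher with PH. Foxc1, a related forkhead factor, was lower at -0.91 ± 0.27 (adjusted p = 0.0255). For Lmx1b, Tcf21 and Inf2 rat 1252, which had both lesions, was the lowest PH rat by a wide gap, with 119.5 normalized counts of Tcf21 where the other 8 lay between 242 and 363. In the other group rat 1255 was the lowest for Nphs1, Wt1, Ptpro and Sema3g, with 21.9 of Wt1 against at least 127 in the other 6. Of the remaining called members, Clic5 (0.61 ± 0.19, adjusted p = 0.0284) and Cdkn1c (0.79 ± 0.28, adjusted p = 0.0446) rose. Cdkn1c is a cyclin kinase inhibitor kept on in mature podocytes. Among the rats with MMI, where the effect came from HFD-fed rats alone, it gave -0.03 ± 0.39 (adjusted p = 0.987).

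**Figure D4:**
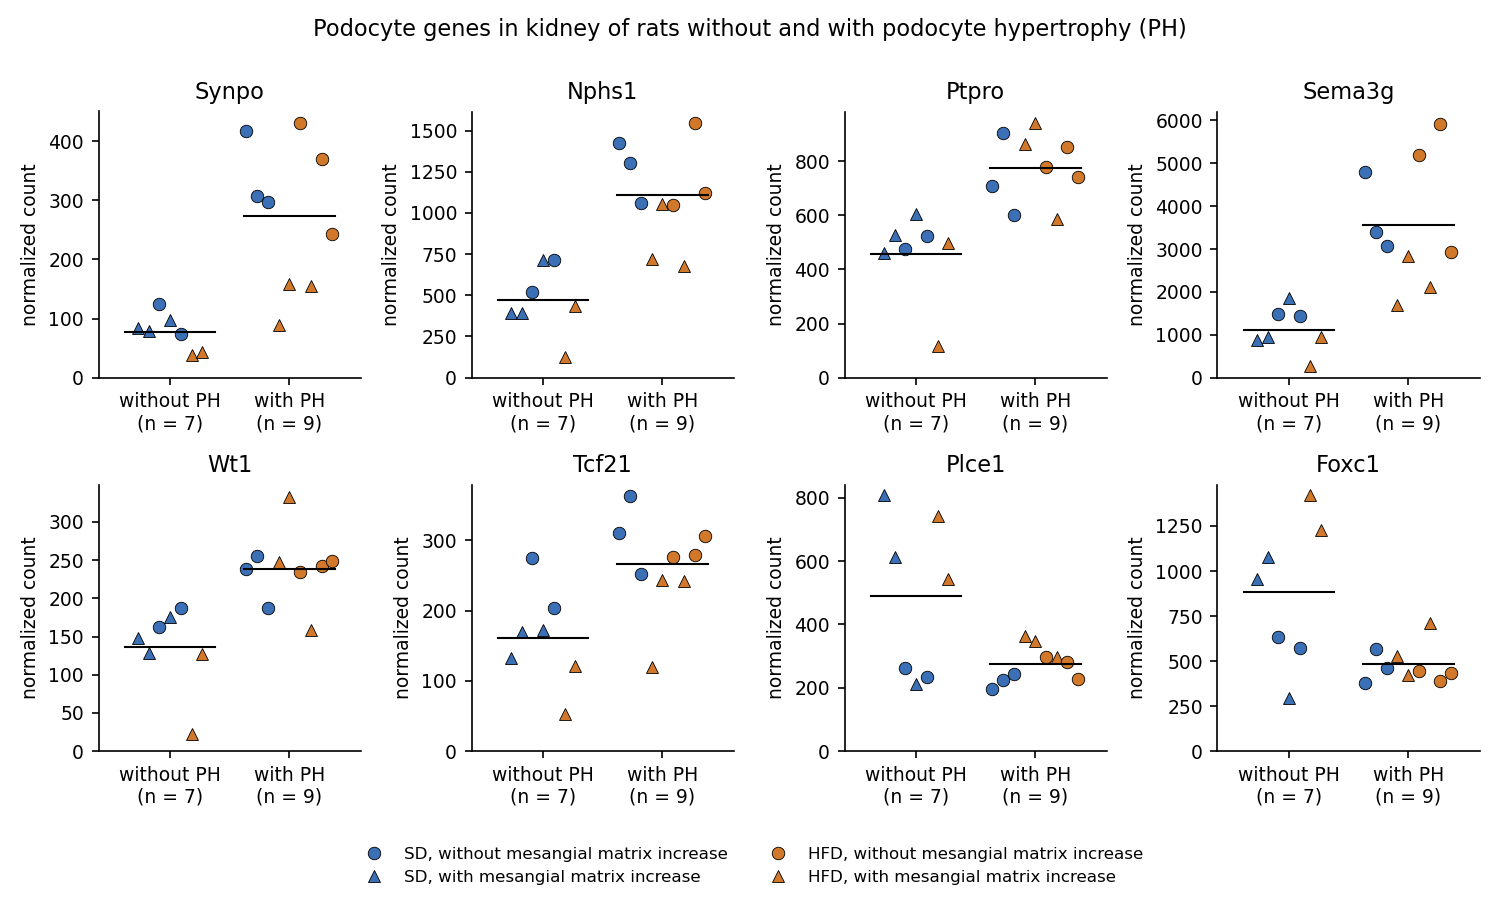
Normalized counts of 8 podocyte genes in the 7 rats without and the 9 rats with PH, each rat a point coloured by diet, triangles for rats with MMI and bars at the group means. Synpo, Nphs1, Ptpro, Sema3g, Wt1 and Tcf21 were called higher with PH and Plce1 and Foxc1 lower, and among rats with PH the 3 with MMI lie lowest for Synpo and Tcf21.

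The promoter windows of Synpo and Sema3g (RefSeq, GRCr8, chr18:56347310-56347609, minus strand, and chr16:6419775-6420074, plus strand) are shown because these genes led the podocyte lists. Capitals mark the GC box GGGCGG searched on both strands, which Synpo holds 3 times and Sema3g once.

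Synpo: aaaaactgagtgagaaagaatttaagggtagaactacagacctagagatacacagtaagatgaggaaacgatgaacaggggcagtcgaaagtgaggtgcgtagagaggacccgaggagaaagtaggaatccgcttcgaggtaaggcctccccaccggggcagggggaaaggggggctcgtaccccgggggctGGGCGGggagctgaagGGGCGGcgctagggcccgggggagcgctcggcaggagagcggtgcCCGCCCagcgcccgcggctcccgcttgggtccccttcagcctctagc
Sema3g: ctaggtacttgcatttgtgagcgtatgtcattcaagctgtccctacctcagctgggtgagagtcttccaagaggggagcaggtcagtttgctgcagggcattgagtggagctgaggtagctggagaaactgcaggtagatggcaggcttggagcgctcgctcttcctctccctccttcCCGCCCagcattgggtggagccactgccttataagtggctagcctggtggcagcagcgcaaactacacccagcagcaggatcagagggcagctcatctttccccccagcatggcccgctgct

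The GC box was present in 33.1% of all windows, in 63.9% of those of genes higher with PH, in 62.8% of those of genes lower with PH and in 58.3% of those of tested genes that were not called, so it did not separate the directions.

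Of 20 glomerular basement membrane genes 4 rose and none fell, where 15.8% of all tested genes were higher and 12% lower. Col4a1 and Col4a2, which encode the widespread collagen IV chains of endothelium and mesangium, gave 1.20 ± 0.31 (adjusted p = 0.0187) and 2.08 ± 0.49 (adjusted p = 0.0168). Their means with PH alone were 3134 and 1523 normalized counts, against 1285 and 383 with both lesions, 1056 and 234 with MMI alone and 1104 and 325 with neither, so the higher values were in the rats with PH and no MMI. The laminin chain Lama5 (1.68 ± 0.46, adjusted p = 0.0214) and the podocyte integrin ligand Npnt (0.61 ± 0.16, adjusted p = 0.0191) also rose. Among 10 endothelial genes, not all of them particular to the glomerulus, 3 rose and none fell. They were Gata5 (1.28 ± 0.26, adjusted p = 0.0134), the endothelial nitric oxide synthase Nos3 (0.74 ± 0.24, adjusted p = 0.0333) and Plvap (0.93 ± 0.32, adjusted p = 0.0421). Among 10 mesangial and juxtaglomerular genes 2 rose, among them the smooth muscle gene Tagln (1.08 ± 0.23, adjusted p = 0.0154), and none fell. The basement membrane and mesangial counts were near the share of all genes called higher. None of the 7 parietal epithelial genes rose and Cd44 fell (-0.84 ± 0.25, adjusted p = 0.0274).

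Most markers of the early proximal tubule, which reabsorbs most filtered glucose, phosphate and amino acids, rose with PH. Of 17 markers of segments S1 and S2, 12 rose and none fell, where 15.8% of all tested genes were higher and 12% lower. Their median log2 fold change was 1.10. The sodium-phosphate cotransporter Slc34a1 was at 20250, 41860 and 65710 normalized counts with PH and 7487, 14610 and 34840 without (1.62 ± 0.30, adjusted p = 0.0116). The glucose transporter Slc5a2 was at 317, 1054 and 2616 with PH and 9.28, 471 and 829.6 without (3.46 ± 0.70, adjusted p = 0.0129). The phosphate transporter Slc34a3 (2.86 ± 0.59, adjusted p = 0.0134), the organic anion transporter Slc22a6 (1.53 ± 0.31, adjusted p = 0.0129) and the gluconeogenic enzyme Pck1 (1.35 ± 0.29, adjusted p = 0.0156) were also higher. The summed markers ran from 251200 to 452800 normalized counts with PH and from 150600 to 337000 without. Without the 5 rats apart on the first principal component the median, from SD-fed rats alone, was 0.33. None of the 17 was called in that fit, which called 0.608% of all tested genes. The late S3 segment did not follow, with 1 gene higher and 1 lower of 11.

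Among markers of the inner medulla, the thin and thick limbs and principal cells more members fell with PH than rose. The counts in this paragraph are to be read against the 15.8% higher and 12% lower of all tested genes. Of 14 inner medulla and papilla markers none rose and 5 fell, with a median of -1.0. The urea transporter Slc14a1 was at 30.8, 115 and 403 normalized counts with PH and 89.7, 594 and 1534 without (-2.10 ± 0.60, adjusted p = 0.0242). The betaine transporter Slc6a12 (-1.76 ± 0.48, adjusted p = 0.0214) and the tonicity factor Nfat5 that induces such osmolyte genes (-1.06 ± 0.25, adjusted p = 0.0168) fell with it. Summed, these markers lay between 70940 and 101500 with PH and between 93420 and 119400 without. Without the same 5 rats the median, from SD-fed rats alone, was -0.42. No gene of any kind was called lower in that fit, so the lack of calls among the 14 says nothing particular about them. Of 11 thick ascending limb genes 5 fell, among them the NKCC2 transporter Slc12a1 (-0.91 ± 0.27, adjusted p = 0.027) and Egf (-0.65 ± 0.21, adjusted p = 0.0341), and 1 rose, while Umod gave -0.15 ± 0.17 (adjusted p = 0.508). Of 8 thin limb genes 2 fell and none rose. Among 10 principal cell genes 4 fell and 1 rose, with Aqp4 at -2.34 ± 0.53 (adjusted p = 0.0166), Fxyd4 at -1.51 ± 0.38 (adjusted p = 0.0187) and Aqp3 at -0.80 ± 0.25 (adjusted p = 0.0326). Without the same 5 rats, and so from SD-fed rats alone, the thick ascending limb median went from -0.42 to -0.14. That of the thin limb genes went from -0.70 to 0.003 and that of the principal cell genes from 0.06 to -0.11. The distal convoluted tubule, a cortical segment, had 4 of 9 genes higher and 1 lower, including its sodium chloride transporter Slc12a3 (0.87 ± 0.24, adjusted p = 0.0218) and Klhl3, a regulator of that transporter (1.36 ± 0.27, adjusted p = 0.0126). Glomeruli, early proximal tubules and distal convoluted tubules lie in the cortex and thin limbs and papilla in the medulla. Thick ascending limbs and principal cells lie in both. Whether the tissue blocks held unequal shares of cortex and medulla was not tested.

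Markers of cells from outside the nephron were also read, against 15.8% higher and 12% lower of all tested genes. Of 8 red blood cell genes 3 rose, with Hba1 at 8709, 25590 and 55610 normalized counts with PH and 3628, 8693 and 15630 without (1.68 ± 0.37, adjusted p = 0.0159). None of 9 adipocyte genes was called, with a median of 0.92 and summed levels of 3558 to 22700 with PH and 4149 to 29100 without. Of 12 fibroblast genes 3 rose, of 14 macrophage genes 1 rose, and no T, NK or B cell gene and none of 5 urothelial genes was called. Without the 5 rats apart on the first principal component the medians, from SD-fed rats alone, were 3.88 for the adipocyte genes and 2.27 for the fibroblast genes. In that fit 2 and 3 members were called higher, where 0.608% of all tested genes were. The summed adipocyte levels were 22700, 18080 and 8007 in SD-fed rats 1244, 1245 and 1246. They were 5274, 7401 and 6453 in SD-fed rats 1249, 1250 and 1251. The study's methods state that fat was cleaned from the kidneys. The part of these markers in the lipid and matrix results below was not tested.

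**Figure D5:**
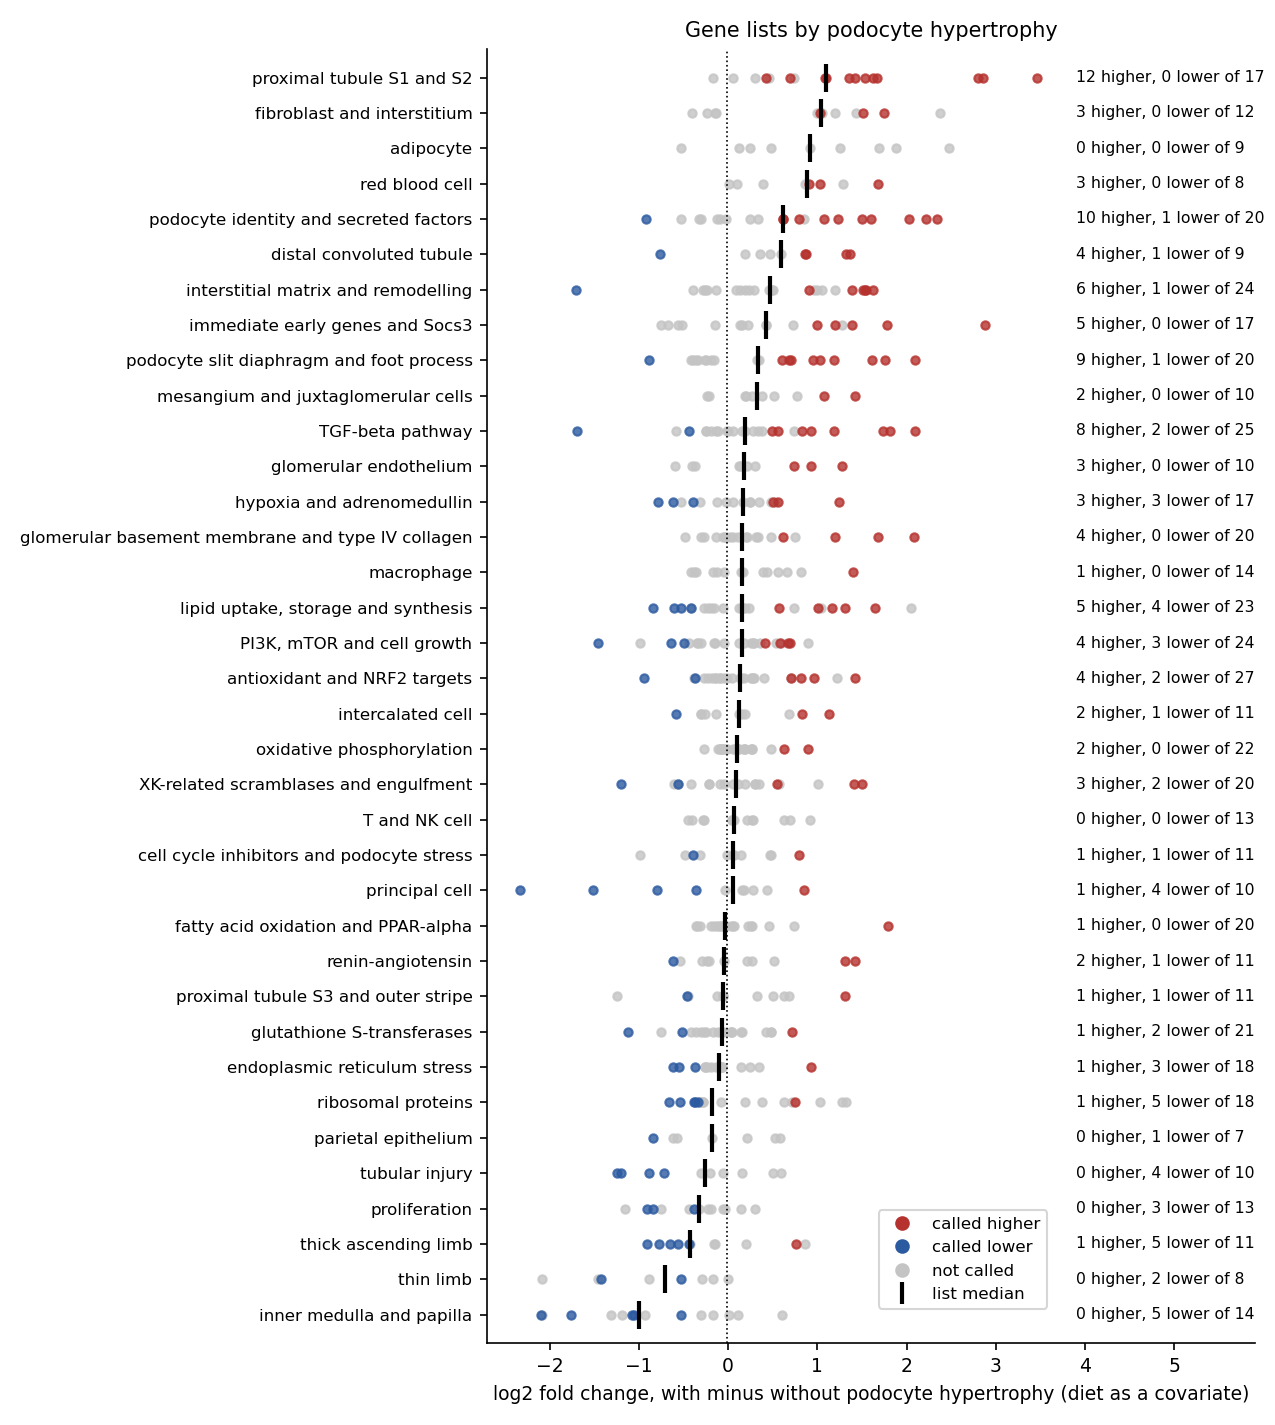
Log2 fold change by PH, with diet as a covariate, of each tested member of the gene lists that had at least 7 tested members, other than the genes the study names, with the list median as a black bar and the counts called in each direction at the right. The dotted line is the median of all tested genes. The medians furthest right are those of the early proximal tubule (1.10), fibroblast (1.04), adipocyte (0.92) and red blood cell (0.89) lists. The podocyte lists are at 0.61 and 0.34. Furthest left are inner medulla and papilla (-1.0), thin limb (-0.70) and thick ascending limb (-0.42).

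TGF-beta signalling, which drives matrix production in the glomerulus, showed 8 of 25 genes higher and 2 lower, against 15.8% and 12% of all tested genes. The ligand Tgfb3 was at 57.6, 82.8 and 119 normalized counts with PH and 27.1, 41.2 and 54.6 without, with no overlap (1.18 ± 0.19, adjusted p = 0.0116). It kept 1.33 ± 0.22 with MMI as a covariate, with the smallest unadjusted p of the named genes in that fit, 1.7e-05 (adjusted p = 0.172). The receptor Tgfbr2 (0.56 ± 0.18, adjusted p = 0.0334), the co-receptor Eng (0.83 ± 0.21, adjusted p = 0.0187), the latency protein Ltbp4 (1.82 ± 0.43, adjusted p = 0.0168) and the pathway's inhibitors Ski (1.74 ± 0.41, adjusted p = 0.0168) and Smad6 (2.09 ± 0.60, adjusted p = 0.0246) rose. The signal transducer Smad2 fell (-0.44 ± 0.11, adjusted p = 0.0169). The BMP antagonist Grem1 was at 788, 1300 and 2163 normalized counts with PH and 1326, 3127 and 9256 without (-1.69 ± 0.28, adjusted p = 0.0116). Of 24 interstitial matrix genes 6 rose, including Col6a1 (1.53 ± 0.35, adjusted p = 0.0168), Col5a1 (1.62 ± 0.43, adjusted p = 0.0212) and Col1a1 (1.51 ± 0.46, adjusted p = 0.0291), and Vcan fell (-1.70 ± 0.52, adjusted p = 0.0287). Among rats with MMI, where the effect came from HFD-fed rats alone, Col1a1 gave -0.54 ± 0.61. That sign rested on rat 1255, at 241 normalized counts without PH. The rats with both lesions lay between 65.2 and 89, above rat 1274 at 45.9.

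Genes of cell growth did not share a direction. Of 24 PI3K, mTOR and growth genes 4 rose and 3 fell, close to the 15.8% and 12% of all tested genes. The mTORC1 subunit Rptor (0.41 ± 0.13, adjusted p = 0.0327) and the stress sensor Sesn2 (0.58 ± 0.16, adjusted p = 0.0215) rose, while the cap-binding factor Eif4e (-0.63 ± 0.12, adjusted p = 0.0117), the mTORC1 activator Rheb (-0.50 ± 0.12, adjusted p = 0.0183) and Igf1 (-1.45 ± 0.39, adjusted p = 0.0212) fell. Mtor gave 0.18 ± 0.12 (adjusted p = 0.261). Of 13 proliferation genes none rose and 3 fell, among them the replication clamp Pcna (-0.38 ± 0.10, adjusted p = 0.019). Of 10 tested tubular injury genes none rose and 4 fell: Cd24, Spp1 (-1.20 ± 0.28, adjusted p = 0.0168), Anxa2 (-0.72 ± 0.23, adjusted p = 0.0307) and Lcn2 (-0.88 ± 0.31, adjusted p = 0.0444). For Lcn2 the difference among the 8 rats without MMI, which came from SD-fed rats alone, was 0.01 ± 0.40 (adjusted p = 0.993). Without the 5 rats apart on the first principal component, and so from SD-fed rats alone, the proliferation median went from -0.33 to 0.18. The tubular injury median went from -0.25 to 0.18, while that of the PI3K, mTOR and growth genes stayed at 0.15.

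Of 23 lipid genes 5 were higher and 4 lower, against 15.8% and 12% of all tested genes. The fatty acid synthase Fasn was at 2676, 4669 and 12240 normalized counts with PH and 1173, 1635 and 4038 without (1.64 ± 0.36, adjusted p = 0.0159), and its regulator Srebf1 gave 1.31 ± 0.42 (adjusted p = 0.0336). Osbp2, an oxysterol-binding protein, rose with no overlap, from 65.2 to 117 with PH against 22.4 to 45 without (1.16 ± 0.19, adjusted p = 0.0116). Of 20 fatty acid oxidation genes 1 rose, and of 22 nuclear genes of oxidative phosphorylation 2 rose, with none lower in either list. In the remaining lists, to be read against the same shares, 5 of 17 immediate early genes rose and none fell, 3 of 17 hypoxia and adrenomedullin genes rose and 3 fell, and 2 of 11 renin-angiotensin genes rose and 1 fell. Of 18 ribosomal protein genes 1 rose and 5 fell, of 18 endoplasmic reticulum stress genes 1 rose and 3 fell, of 11 cell cycle inhibitor and podocyte stress genes 1 rose and 1 fell, and of 11 intercalated cell genes 2 rose and 1 fell.

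Of 13 tested genes that the study names for PH, 8 rose, 4 fell and 1 was not called; they were chosen on these same rats, so their directions are not independent evidence. Besides Gsta3 and Xkr4, the cell surface sialoglycoprotein Cd24 fell from 6043, 13170 and 18340 normalized counts without PH to 4003, 5640 and 10390 with it (-1.24 ± 0.22, adjusted p = 0.0116), and the galactolipid synthase Ugt8 gave -1.37 ± 0.26 (adjusted p = 0.0116). The vasodilator peptide gene Adm rose by 1.24 ± 0.31 (adjusted p = 0.0183), and 8 of the 9 rats with PH lay above every rat without it. Pdxk, the kinase that activates vitamin B6, gave 1.31 ± 0.25 (adjusted p = 0.0116). Slc22a17 (1.63 ± 0.38, adjusted p = 0.0168), Ptpn23 (1.24 ± 0.32, adjusted p = 0.019), Mfsd12 (2.01 ± 0.54, adjusted p = 0.0212), Thegl (-1.75 ± 0.54, adjusted p = 0.0294) and the cytokine inhibitor Socs3 (1.19 ± 0.39, adjusted p = 0.0345) were called as well. Hspa4, taken here for a symbol the study prints as Hsp4, was not called (-0.25 ± 0.09, adjusted p = 0.0563).

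Junb, an AP-1 transcription factor and immediate early gene, showed how far single rats could reach. It was at 17.6, 884 and 1853 normalized counts with PH and 28.3, 211 and 636 without (2.87 ± 0.95, adjusted p = 0.0361), and the lowest value of all was that of rat 1252, which had PH. The 4 rats between 17.6 and 33.8, namely 1247, 1248, 1252 and 1274, all had MMI and all stood apart on the first principal component. Its call was lost in 9 of the 16 fits that left out a rat, and with MMI as a covariate it gave 1.53 ± 0.94 (adjusted p = 0.364). Jun, its partner, gave 1.0 ± 0.32 (adjusted p = 0.0345).

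Outside these lists, the genes with the smallest p-values that were higher with PH included the small G protein gene Rasd2 (1.31 ± 0.21), the endothelial adhesion receptor Adgra2 (2.63 ± 0.41), the insulin receptor-related receptor Insrr (1.43 ± 0.23), the ubiquitin ligase adaptor Klhl25 (0.80 ± 0.13), the lymphatic chemokine Ccl21 (1.59 ± 0.26), the natriuretic peptide clearance receptor Npr3 (1.23 ± 0.21), the brush border peptidase Dpep1 (0.87 ± 0.15) and Scube3 (2.26 ± 0.38), all at an adjusted p of 0.0116. Scube3, a secreted signalling protein, was the only gene called in the SD-fed rats alone (adjusted p = 0.048) and in the HFD-fed rats alone (adjusted p = 0.0289). It lay between 90.8 and 294 normalized counts with PH and between 10.1 and 92.7 without. Those lower with PH included the pro-apoptotic BCL2 family gene Pmaip1 (-1.71 ± 0.28), the membrane trafficking gene Scamp1 (-0.59 ± 0.10), the annexin Anxa4 (-0.57 ± 0.10), the angiogenic vasohibin Vash2 (-2.05 ± 0.36) and the catenin-like Ctnnal1 (-1.0 ± 0.18), all at 0.0116.

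The 16 called genes without overlap between the groups were 10 higher and 6 lower with PH. This set was picked after its values were seen. Besides Xkr4, Tgfb3 and Osbp2 the higher genes included Olfm1, Sall3, Slc5a10, Lpar2, Mpped1 and Fnbp1, and besides Gsta3 the lower genes were H3f3b, Pole4, Snn, Phf7 and Vezt. Olfm1, an olfactomedin, was at 353, 427 and 541 normalized counts with PH and 90.8, 225 and 298 without (1.23 ± 0.21). Slc5a10, a sugar transporter of the proximal tubule, was at 2351, 3227 and 6694 against 1044, 1460 and 2038 (1.20 ± 0.23), and Sall3, a zinc finger factor, at 83.9, 134 and 240.0 against 28.1, 48.9 and 74.3 (1.60 ± 0.28). H3f3b, a histone H3.3 gene, lay between 4202 and 5873 with PH and between 6013 and 8360 without (-0.51 ± 0.09). All 4 stood at an adjusted p of 0.0116 with diet as a covariate and at 0.0613 without rat 1274.

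Analysed apart, the diets gave fewer calls. In the 8 SD-fed rats (3 with PH) 315 genes were called (2.3%), 301 higher (2.2%) and 14 lower (0.102%), and in the 8 HFD-fed rats (6 with PH) 125 were called (0.917%), 96 higher (0.704%) and 29 lower (0.213%). Of the 3806 genes called together, 3791 had the same sign in both diets; the diets share no rat, but both entered the joint fit that chose the genes. The test of the difference itself, an interaction of PH and diet, called 2 genes (0.0146%), with 1111 genes at an unadjusted p under 0.05 (8.13%). For LOC102552055 the log2 fold change by PH was 6.65 ± 0.95 larger in HFD-fed than in SD-fed rats (adjusted p = 0.048). HFD-fed rats 1255 and 1274 had 0 and 0.908 normalized counts, the 6 HFD-fed rats with PH 77.2 to 207, and SD-fed rats 13 to 143 with and 13 to 53.1 without PH. For Tlr12, a Toll-like receptor that in mice recognises profilin of parasites, the difference was 3.72 ± 0.56 (adjusted p = 0.048), with 6.61 and 16 in the same 2 rats and at least 126 in each of the other 14. Both genes turned on rats 1255 and 1274. No gene was called for the interaction without rat 1245, 1246, 1247, 1248, 1250, 1252 or 1255, and 170 were called without rat 1274.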

How the data were processed

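Kidney RNA of 16 rats was sequenced from stranded libraries. The sample labels give frozen blocks as its source and the study's methods tissue kept in a stabilization solution. Per the study's methods and the submitters' processing notes, reads were trimmed with cutadapt, quantified on Rnor6.0 with Salmon and tested with DESeq2 1.24.0. The deposited table holds the authors' normalized signal for 14747 genes, counts scaled between libraries that are not whole numbers, so no count model was fitted. How they were scaled could not be read from the values. The table's own fold change and p-value columns, which compare the diets, were not used, nor were the small RNA files of the series. The study's methods give the reads per library only as a range over all libraries, and the reads behind a value could not be recovered from the table, where 2.65% of values between 1 and 50 were within 0.01 of a whole number.

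Genes with a mean of at least 5 (13673) were tested on log2(value + 1) with limma 3.58.1 in R 4.3.3 (trended variance, lesion and diet as terms), with Benjamini-Hochberg adjustment over all tested genes; fold changes on this scale understate those of low genes. The fit was run on simulated data in which each gene varied independently of the others. The real genes varied together, so that run does not bear on the number of genes called. The alternatives were other covariates, subsets of rats, pseudocounts, filters, scalings and variance models. Splits by MMI and the fit without the 5 rats apart on the first principal component were added after the data were seen. Lesions came from the study's figure, not from the sample labels, and each rat is a biological replicate of its group. The question, the groups and the 39 gene lists were chosen with earlier results of these data known. Genes were named by rule: the genes the study names for PH, the 15 smallest p-values in each direction, the 10 largest changes in each direction at a mean of at least 50, up to 6 members of each list by p, the tissue markers and the GST and XKR paralogs; the text prints a part of them, and the results of some genes are not reported here. No gene was called under all 3 covariate models, so that part of the rule named none. Sequences are RefSeq windows (GRCr8), and 76.7% of tested genes matched one by symbol.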

Additional observations from a re-analysis of the deposited data

Results flagged for a closer look

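Among the named genes, 30 values stood apart from the rest of their lesion group by Dixon's test on the log2 scale, out of 292 groups examined; chance flags about 1 group in 20. Rat 1252, which had PH and MMI, was the lowest rat with PH for Adm (52.1 normalized counts), Junb (17.6), Mfsd12 (11.3), Inf2 (22.4), Tcf21 (119.5), Lmx1b (3.20), Gas6 (1901), Smad6 (11.9), Eng (527), Jun (507), Ubd (0), Gsto2 (4.61) and Xkr6 (3.70), and the highest for Aqp4 (4077), Anxa2 (2666) and Xk (68.8). Rat 1255, an HFD-fed rat with MMI and no PH, was the lowest rat without PH for Nphs1 (127), Wt1 (21.9), Ptpro (118) and Sema3g (266), and the highest for Col1a1 (241), Gstm1 (2674) and Xk (136.5). Rat 1274 was the lowest without PH for Gstm4 (386).

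Single values that stood apart were those of Xkr4 in rat 1267 (5.28, lowest with PH), Vezt in rat 1271 (219, lowest with PH), Mgst3 in rat 1244 (6773, highest with PH), Gstm1 in rat 1246 (1081, highest with PH), Gstcd in rat 1247 (229.8, highest without PH) and Ubd in rat 1250 (269, highest without PH).

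The effect of PH differed between the diets for LOC102552055, by 6.65 on the log2 scale (HFD minus SD), and for Tlr12, by 3.72. In both genes rats 1255 and 1274, the HFD-fed rats without PH, had the 2 lowest values of all 16 rats.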

How the results depend on the processing

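The count of 3806 genes became 174 with no diet covariate, 0 with MMI added (2523 at an unadjusted p under 0.05), 315 in SD-fed rats, 125 in HFD-fed rats, 0 without rats 1246, 1248 and 1249 (4693 unadjusted), 6301 with array weights and 1271 with an absolute log2 fold change over 1. Chosen after the data were seen, the rats without MMI gave 594, the rats with MMI 3 and the 11 rats left without 1247, 1248, 1252, 1255 and 1274 gave 83. Leaving out each rat in turn gave 0 to 5247 genes, and 0 to 170 for the interaction with diet, whose 2 genes became 0 at a pseudocount of 5. The other pseudocounts, filters, scalings and the robust variance gave 3677 to 3946 genes (1796 higher and 1991 lower under equal library totals), and the median log2 fold change of all genes moved to -0.03 under TMM factors and -0.06 under equal library totals. Among the named genes, signs turned among rats with MMI for Cdkn1c (-0.027), Plvap (-0.13) and Col1a1 (-0.54), and for Lcn2 without MMI (0.00696) and without the 5 rats above (0.10). In the splits by MMI the PH effect came from HFD-fed rats alone with MMI and from SD-fed rats alone without it. Without the 5 rats above it also came from SD-fed rats alone. Without rat 1274, and likewise with MMI added, all 122 called named genes lost the threshold and kept their sign. No paired analysis was possible because the rats compared share no number. With 2 HFD-fed rats without PH, and both with MMI, the lesion effects in that diet rest on few animals.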

Other observations

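Some of the largest changes rested on a few rats. Ubd, a ubiquitin-like protein induced by inflammation, had the largest log2 fold change among called genes with a mean of at least 50, 4.37 ± 1.24 (SE, adjusted p = 0.024). It was listed at 0 in rat 1252 and at 269 in rat 1250, which had no PH, with medians of 131 in the 9 rats with PH and 1.91 in the 7 without. Kcp, a BMP modulator of the kidney, gave 3.65 ± 0.82 (adjusted p = 0.0165), with medians of 90.9 and 6.64. Nrip3 had the largest fall among the same genes, -3.20 ± 0.92 (adjusted p = 0.025), with medians of 27.6 with PH and 520 without and a highest PH rat at 1135.

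Among the 8 rats with MMI, 3 genes were called by PH: LOC102552055 (6.94 ± 0.47, adjusted p = 0.00348), Dusp15 (3.21 ± 0.33, adjusted p = 0.0368) and Tlr12 (4.34 ± 0.45, adjusted p = 0.0368). Among the 8 rats without MMI, 594 were called, 518 higher and 76 lower, of 13682 tested. The rats with MMI held 3 with PH and the rats without MMI held 2 without PH, and the counts were not compared by a test. With diet as a covariate, the calls with MMI rested on HFD-fed rats alone and those without MMI on SD-fed rats alone. Rats 1255 and 1274 were the HFD-fed rats with MMI and no PH, so LOC102552055 and Tlr12 turned on the same rats as in the interaction.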
